A study of Mus musculus with 4 samples.

Results

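The genes described here are p53 (Trp53), its regulators and genes that p53 is known to switch on, 37 genes in all. They were selected by gene name, and all 37 were found among the 31829 gene names on the arrays. When DNA is damaged or an oncogene is active, p53 escapes degradation by the ubiquitin ligase MDM2 and binds response elements near its target genes, whose products halt the cell cycle, repair DNA or bring about cell death. MDM2 is itself a p53 target, so the pathway holds a feedback loop, and embryonic fibroblasts are known to arrest through p53 and its target p21 in culture. Ccng1, the gene for cyclin G1 (CycG1), is another p53 target, and CycG1 and CycG2 bind a B' subunit of the phosphatase PP2A that acts on MDM2 and other regulators of the damage response.

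The study used mouse embryonic fibroblasts (MEFs) to ask how loss of CycG1 and CycG2 alters the response to DNA damage. RNA came from 4 MEF cultures of the C57BL/6J strain in logarithmic growth, none of them treated, each hybridised to 1 Agilent array of 1 colour. The double knockout (DKO) was CycG1-/-CycG2-/-, and its wild type (WT of DKO) was CycG1+/+CycG2+/+. The single knockout (G2KO) was CycG2-/-, and its wild type (WT of G2KO) was CycG2+/+. MEFs were primary cultures from mid-gestation embryos, and the Ccng1 allele lacks all coding exons. The labels give no sex, litter or passage of a culture. Each group was 1 array, so no test between groups was possible, no error between cultures could be given, and every comparison below describes these 4 cultures. Both WT arrays are CycG2+/+ by their labels, and only the label of WT of DKO also gives a CycG1 genotype. These WT arrays gave the only measure of how far cultures differ: the SD of log2 ratios between them was 1.005 over 24197 probes.

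A level is the processed signal of the gene's brightest probe divided by the array's 75th percentile signal, which was 1586 to 2234. Levels can be compared between arrays but not between genes, since probes differ in brightness. On these arrays 65.0% to 72.2% of probes were well above background, and repeated spots of a probe had a median SD of 0.058 to 0.093 on the log2 scale within an array. Ccng1 was at 1.66 in WT of DKO and not well above background in DKO MEFs, at least 228-fold lower. The Ccng2 probe was at 0.081 in WT of DKO, 0.062 in DKO, 0.104 in WT of G2KO and 0.091 on the G2KO-labelled array, so it did not separate either knockout from its WT by 2-fold. On the G2KO-labelled array, En2, Foxa2, Sox2, Sox6 and Xist were lower than on its WT array, which is the opposite of the direction in which the study lists them for G2KO MEFs. Cdkn2b and Pdgfra, which the study lists as lower in G2KO MEFs, were higher on the G2KO-labelled array than on its WT. These turned differences were large, at 567-fold lower for En2 and at least 373-fold lower for Foxa2. The study describes dye-swapped hybridisations for the G2KO comparison, while these arrays are of 1 colour, so whether its listing rests on them is not known. Whether the labels of the pair were exchanged was not tested either. The name "the G2KO-labelled array" is therefore used, and directions in that pair rest on the labels alone. Where they matter most, values with the labels of the pair exchanged are given as well. Xist was well above background only on the WT of G2KO array, and the Y-linked genes Ddx3y and Eif2s3y only on the other 3, which is how cultures from female and male embryos differ. The study ascribes high Xist in its G2KO MEFs to their female origin, whereas here the female pattern lay on the array labelled WT. The G2KO-labelled array was closer to WT of DKO, with an SD of log2 ratios of 0.535, than to its own WT array, with 0.859. With the labels of that pair exchanged, 0.535 would be the SD between the WT cultures. Unless an exchange is named, the WT arrays are those labelled WT. For this reason the 2 knockout comparisons nearly share an array that enters them on opposite sides, and signs that oppose each other between them are not independent.

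Most of the p53 target genes were higher in DKO MEFs than in WT of DKO. A log2 ratio of at least 1, which is a 2-fold difference, was reached upwards by 21 of 37 genes and downwards by 0 of 37, and 16 stayed within 2-fold. Over all genes with a ratio, 10.6% were at least 2-fold higher and 9.61% at least 2-fold lower. These shares, and those given next for the other pairs, also stand beside the counts of smaller groups below. The median log2 ratio of the 37 genes was 1.19, against 0.03 over all genes. At least 4-fold higher were 12 of them, where 4.05% of all genes were. Of the 37 genes, 35 were well above background on all 4 arrays. Eda2r and Gdf15 were not well above background in WT of DKO and on the G2KO-labelled array, so their ratios there are lower limits.

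By the labels, the genes lay the other way on the G2KO-labelled array. Against WT of G2KO, 18 of 37 were at least 2-fold lower, where 8.37% of all genes were, and 4 were at least 2-fold higher, where 8.74% were. The median log2 ratio was -0.97, against -0.17 over all genes. With the labels of this pair exchanged, 18 genes would be higher and 4 lower, with a median of 0.97, the same way as in DKO MEFs. The arrays labelled WT also differed from each other in these genes. In WT of DKO, 15 of 37 were at least 2-fold lower than in WT of G2KO, where 9.91% of all genes were, and 3 were at least 2-fold higher, where 11.7% were, with a median of -0.90 against -0.08. At least 4-fold lower were 8 of 37 on the G2KO-labelled array, where 2.02% of all genes were, and 8 of 37 in WT of DKO, where 2.76% were.

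**Figure D1:**
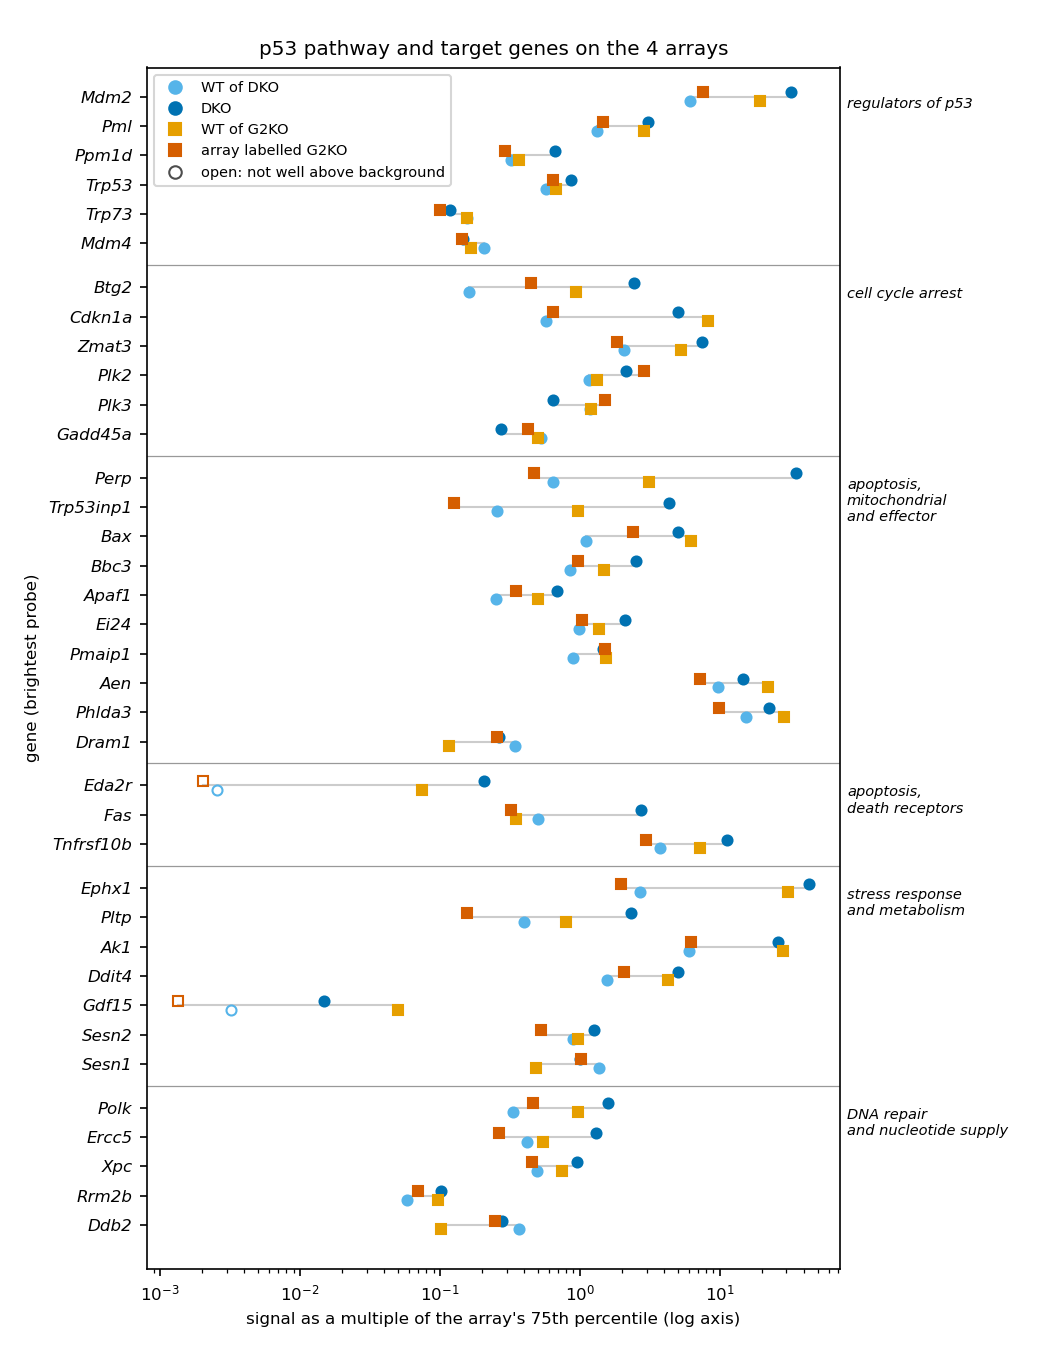
Level of each of the 37 genes on each array, as a multiple of the array's 75th percentile on a log axis, grouped by role and ordered within a role by the log2 ratio of DKO to its WT; circles are the DKO pair, squares the pair labelled G2KO, and open symbols were not well above background. For 25 of the 35 genes measured on all 4 arrays, the DKO and WT of G2KO symbols lie to the right of the other 2.

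Across the arrays, 1 knockout and the WT of the other comparison were high together by the labels. Of the 35 genes well above background everywhere, 25 had their highest levels in DKO and WT of G2KO, an order found in 23.9% of the 19464 genes measured on all 4 arrays. With the labels of the G2KO pair exchanged, these would be the arrays of both knockouts, above both WT arrays. In the other 10 genes, the highest pair was DKO with WT of DKO for Fas, Ddb2 and Dram1, both WT arrays for Mdm4, Gadd45a and Trp73, and the pair labelled G2KO for Pmaip1 and Plk3. Plk2 was highest in both knockouts and Sesn1 on the G2KO-labelled array and in WT of DKO. Set against WT of G2KO, DKO MEFs were at least 2-fold higher in 10 genes, where 14.0% of all genes were, and at least 2-fold lower in 1, where 11.8% were, with a median log2 ratio of 0.49. The G2KO-labelled array and WT of DKO, compared with each other, differed by at least 2-fold in 5 of 35 genes, with Bax, Btg2 and Plk2 higher on the G2KO-labelled array, where 4.32% of all genes were, and Trp53inp1 and Pltp lower, where 4.86% were. A gene stands apart from the WT spread only where it lies outside both WT arrays, taken here by the labels. DKO MEFs were at least 2-fold above both in 7 genes, Perp, Fas, Trp53inp1, Btg2, Ercc5, Eda2r and Pltp, where 7.46% of all genes were, and at least 2-fold below both in 0, where 4.23% were. The G2KO-labelled array was at least 2-fold below both WT arrays in Trp53inp1 and Pltp, where 0.667% of all genes were, and at least 2-fold above both in Plk2, where 1.73% were. With the labels of the G2KO pair exchanged, the WT arrays would be WT of DKO and the G2KO-labelled one. Further genes in DKO, of which Mdm2, Cdkn1a, Ephx1 and Ak1 are examples, would then be at least 2-fold above both. Neither their number nor the share of all genes that would do so was counted. The count of 7 given above therefore rests on the labels.

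Of the 6 regulators of p53 activity, Mdm2, Pml and Ppm1d were at least 2-fold higher in DKO than in WT of DKO, and Trp53, Mdm4 and Trp73 were not. Trp53 was at 0.569 in WT of DKO, 0.867 in DKO, 0.673 in WT of G2KO and 0.646 on the G2KO-labelled array. All 4 arrays lay within 1.52-fold, with a log2 ratio of 0.61 between DKO and WT and of -0.06 in the pair labelled G2KO. The probe lies on chromosome 11 of mm9, from 69404204 to 69404263.

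Mdm2 encodes the ligase that marks p53 for degradation (probe at chromosome 10, 117126010 to 117126069). Its level was 6.14 in WT of DKO, 32.5 in DKO, 19.3 in WT of G2KO and 7.61 on the G2KO-labelled array. The DKO and WT of G2KO arrays were both above the other two, with a 5.30-fold difference between DKO and WT and a 2.54-fold lower level on the G2KO-labelled array than on its WT. Between the WT arrays Mdm2 differed 3.15-fold.

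Pml, the scaffold of the nuclear bodies where p53 is modified, was at 1.34 in WT of DKO, 3.05 in DKO, 2.87 in WT of G2KO and 1.47 on the G2KO-labelled array. Its 2.28-fold higher level in DKO was close to the 2.15-fold difference between the WT arrays, and a second Pml probe gave a log2 ratio of 0.46 in place of 1.19. Ppm1d, the gene for the phosphatase WIP1 that shuts p53 signalling off, was at 0.321 in WT of DKO and 0.663 in DKO, a 2.06-fold difference, while the other arrays were at 0.367 and 0.293. DKO was the highest array, 1.80-fold over WT of G2KO. With normexp background correction the log2 ratio of Ppm1d in the DKO pair was 0.87 in place of 1.05, under the 2-fold limit.

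Mdm4 encodes an inhibitor of p53 that resembles MDM2. It ranged from 0.145 on the G2KO-labelled array to 0.206 in WT of DKO. Trp73, a p53 relative, ranged from 0.101 to 0.157 by its only detected probe, and its other probes were not well above background on any array. The log2 ratios of DKO to WT were -0.49 for Mdm4 and -0.40 for Trp73.

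The group of cell cycle arrest genes held the p53 target most studied in fibroblasts, Cdkn1a, whose product p21 inhibits cyclin-dependent kinases. Cdkn1a was read by 10 spots of 1 probe on each array (chromosome 17, 29237377 to 29237436). The level was 0.572 in WT of DKO, 5.00 in DKO, 8.20 in WT of G2KO and 0.643 on the G2KO-labelled array. The spots of one array had an SD of 0.054 to 0.103 on the log2 scale, far below the distance between the higher and the lower pair of arrays. The log2 ratio was 3.13 for DKO against WT, which is 8.74-fold, and -3.67 for the G2KO-labelled array against its WT, which is 12.7-fold lower. It was -3.84 between the arrays labelled WT, so by the labels the WT cultures were farther apart than either knockout was from its own WT. By the labels, DKO also did not lie outside both WT levels. With the labels of the G2KO pair exchanged, the WT levels would be 0.572 and 0.643, and DKO at 5.00 would lie above both.

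A second Cdkn1a probe, for the transcript variant NM_001111099, also had DKO and WT of G2KO as the higher pair, with levels of 0.0117 in WT of DKO, 0.293 in DKO and 0.361 in WT of G2KO. On the G2KO-labelled array this probe was not well above background. The log2 ratio of DKO to WT by this probe was 4.65, beside 3.13 by the first. The difference in the pair labelled G2KO was -5.77 or lower, beside -3.67, and that between the WT arrays was -4.95, beside -3.84.

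The windows from 250 bases before to 50 after each RefSeq transcription start (GRCm38.p6) were searched on both strands for the p53 consensus response element, a pair of 10-base elements with a spacer of up to 13 bases. Of the 37 genes, 29 have a window in the table. An exact match lay in 24 of 32851 windows, which is 0.0731%, and Cdkn1a was the only one of the 37 genes with it. When 2 mismatches were allowed with the C and G of each core kept, a search added after the data had been seen, the share was 4.71% of all genes and 6 of 29 of the p53 genes. The 3 of these that were at least 2-fold higher in DKO MEFs are printed to show what the matches look like, with the 10-base elements in capitals and 15 bases on either side.
Cdkn1a: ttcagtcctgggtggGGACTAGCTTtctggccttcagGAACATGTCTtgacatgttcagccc
Pml: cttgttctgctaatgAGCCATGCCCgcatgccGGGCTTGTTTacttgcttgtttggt
Bax: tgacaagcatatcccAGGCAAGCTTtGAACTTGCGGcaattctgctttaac
The Cdkn1a stretch is chr17:29090891-29090952 on the plus strand, with its match from 73 to 42 bases upstream of the upstream start of the gene, and it has no mismatch. The Pml stretch is chr9:58249906-58249962 on the minus strand, with 1 mismatch and its match from 161 to 135 bases upstream of the start. The Bax stretch is chr7:45467064-45467114 on the minus strand, with 2 mismatches from 201 to 181 bases upstream. Sesn1, Gadd45a and Trp73 also had a match with 2 mismatches, and none of these 3 was 2-fold higher in DKO. A match describes the letters only, and the search kept the pair with the fewest mismatches in a window. In Cdkn1a, the 10 bases after the second element in capitals also pair with that element, without a spacer and with 1 mismatch.

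Btg2, an antiproliferative cofactor, had the highest DKO ratio of the arrest genes by their brightest probes, although the second Cdkn1a probe gave 4.65 against 3.92 for Btg2. It was at 0.161 in WT of DKO, 2.44 in DKO, 0.938 in WT of G2KO and 0.450 on the G2KO-labelled array. DKO was above every other array, 15.2-fold over its own WT and 2.60-fold over WT of G2KO. Zmat3, a zinc finger RNA-binding protein, was at 2.07 in WT of DKO, 7.43 in DKO, 5.31 in WT of G2KO and 1.83 on the G2KO-labelled array, with the same pair of high arrays as Mdm2. Its log2 ratio was 1.84 for DKO against WT and -1.53 in the pair labelled G2KO.

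The other arrest genes stayed within 2-fold in the DKO pair. Gadd45a, which encodes a stress sensor that binds PCNA, was at 0.532 in WT of DKO and 0.275 in DKO, with 0.50 and 0.424 on the other arrays. Its log2 ratio of -0.95 was the lowest of all 37 genes and lay just inside the 2-fold limit. Of the polo-like kinases, Plk3 was at 1.18 in WT of DKO and 0.645 in DKO, and Plk2 at 1.16 and 2.12. On the G2KO-labelled array, Plk2 was at 2.89 against 1.33 in WT of G2KO, 2.17-fold higher, and was 1 of the 4 genes that were at least 2-fold higher there.

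Among the genes that act at mitochondria or downstream in cell death, 6 of 10 were at least 2-fold higher in DKO than in WT, and 5 of 10 were at least 2-fold lower on the G2KO-labelled array than on its WT. Bax, the pore-forming killer of the BCL2 family, was at 1.11 in WT of DKO, 5.00 in DKO, 6.24 in WT of G2KO and 2.38 on the G2KO-labelled array. The DKO level was 4.52-fold that of its WT but below WT of G2KO. Bbc3, which encodes PUMA, was at 0.855 in WT of DKO, 2.50 in DKO, 1.5 in WT of G2KO and 0.969 on the G2KO-labelled array, a 2.93-fold difference in the DKO pair and 1.54-fold in the other. Pmaip1, which encodes NOXA, did not follow: it was at 0.894 in WT of DKO and between 1.47 and 1.53 on the other 3 arrays.

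Apaf1, the core of the apoptosome, was at 0.253 in WT of DKO, 0.683 in DKO, 0.499 in WT of G2KO and 0.347 on the G2KO-labelled array, and was 2.70-fold higher in DKO than in WT. Ei24, first found as an etoposide-induced gene, was at 0.994 in WT of DKO and 2.10 in DKO, with 1.38 in WT of G2KO and 1.04 on the G2KO-labelled array. The difference of 2.11-fold in the DKO pair was above the 1.39-fold difference between the WT arrays.

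Perp had the highest ratio of all 37 genes (chromosome 10, 18576697 to 18576756). Its product is a membrane protein of desmosomes that was named as a p53 apoptosis effector and is abundant in stratified epithelia. It was at 0.641 in WT of DKO, 35.0 in DKO, 3.1 in WT of G2KO and 0.469 on the G2KO-labelled array. DKO lay 54.6-fold over its own WT and 11.3-fold over WT of G2KO. Only 0.393% of all genes with a ratio had a higher one in the DKO pair. Of 12 mesothelial and epithelial marker genes, 11 were also at least 4-fold higher in DKO than in WT, where 4.05% of all genes were. Their summed level was 150 in DKO and 0.686 to 1.6 on the other arrays. In the pair labelled G2KO they did not follow Perp, which had a log2 ratio of -2.72. Of the 7 markers with a ratio there, 4 were higher and 3 lower, with a median of 0.04. All 12 were well above background in DKO, while Wt1, Upk3b, Upk1b, Lrrn4 and Gpm6a were not on any other array. Msln made up most of the sum, at 100 in DKO and 0.492 to 1.52 elsewhere. It was well above background on all 4 arrays, as were Krt19 and Aldh1a2. Bnc1, Krt18, Krt8 and Cdh1 were so on some of the arrays besides DKO. Aldh1a2 was the 1 gene not higher in DKO than in WT, with a log2 ratio of -0.24. The 7 genes for which DKO lay at least 2-fold above both WT arrays were picked by that height. The rise of the markers in DKO therefore shows no separate link to them. The part of these markers' cells in those levels was not tested. In bulk RNA, fewer cells of a type and less RNA per cell cannot be told apart.

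Trp53inp1, a nuclear protein that promotes p53 phosphorylation and autophagy, was at 0.257 in WT of DKO, 4.34 in DKO, 0.968 in WT of G2KO and 0.125 on the G2KO-labelled array. It was 16.9-fold higher in DKO than in WT and 4.49-fold higher than in WT of G2KO, and 7.72-fold lower on the G2KO-labelled array than on its WT. A second probe gave log2 ratios of 2.96 and -1.81 in place of 4.08 and -2.95, the same order with smaller differences. Thus DKO was the highest and the G2KO-labelled array the lowest of the 4 by both probes.

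Phlda3, which competes with AKT for membrane lipids, and Aen, an apoptosis-enhancing nuclease, fell short of 2-fold in the DKO pair. Phlda3 was at 15.3 in WT of DKO, 22.4 in DKO, 28.6 in WT of G2KO and 9.83 on the G2KO-labelled array. Aen was at 9.75, 14.7, 22.0 and 7.18 in the same order. Both were highest in WT of G2KO, and both were at least 2-fold lower on the G2KO-labelled array than there, 2.91-fold for Phlda3 and 3.07-fold for Aen. Dram1, a lysosomal membrane protein of p53-driven autophagy, had its lowest level, where these genes had their highest, of 0.116 in WT of G2KO and 0.256 to 0.347 on the other arrays.

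All 3 death receptor genes were at least 2-fold higher in DKO than in WT. Fas, the receptor of Fas ligand, was at 0.50 in WT of DKO, 2.73 in DKO, 0.352 in WT of G2KO and 0.321 on the G2KO-labelled array. Only DKO was high, 5.47-fold over its own WT and 7.77-fold over WT of G2KO, and the other 3 arrays lay within 1.56-fold of each other. Fas thus did not share the order of the arrays seen for Mdm2 and Cdkn1a, in which WT of G2KO was high too.

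Tnfrsf10b, the mouse TRAIL receptor, was at 3.72 in WT of DKO, 11.2 in DKO, 7.18 in WT of G2KO and 2.97 on the G2KO-labelled array. It was 3.02-fold higher in DKO than in WT and 2.42-fold lower on the G2KO-labelled array than on its WT. Eda2r, the X-linked receptor of an ectodysplasin variant, was at 0.208 in DKO and 0.0742 in WT of G2KO while the remaining arrays were not well above background. DKO was at least 20.3-fold over its own WT, and the G2KO-labelled array at least 11.2-fold under its WT. A second Eda2r probe gave limits of 4.28 and -2.98 for the log2 ratios, beside 4.34 and -3.49.

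**Figure D2:**
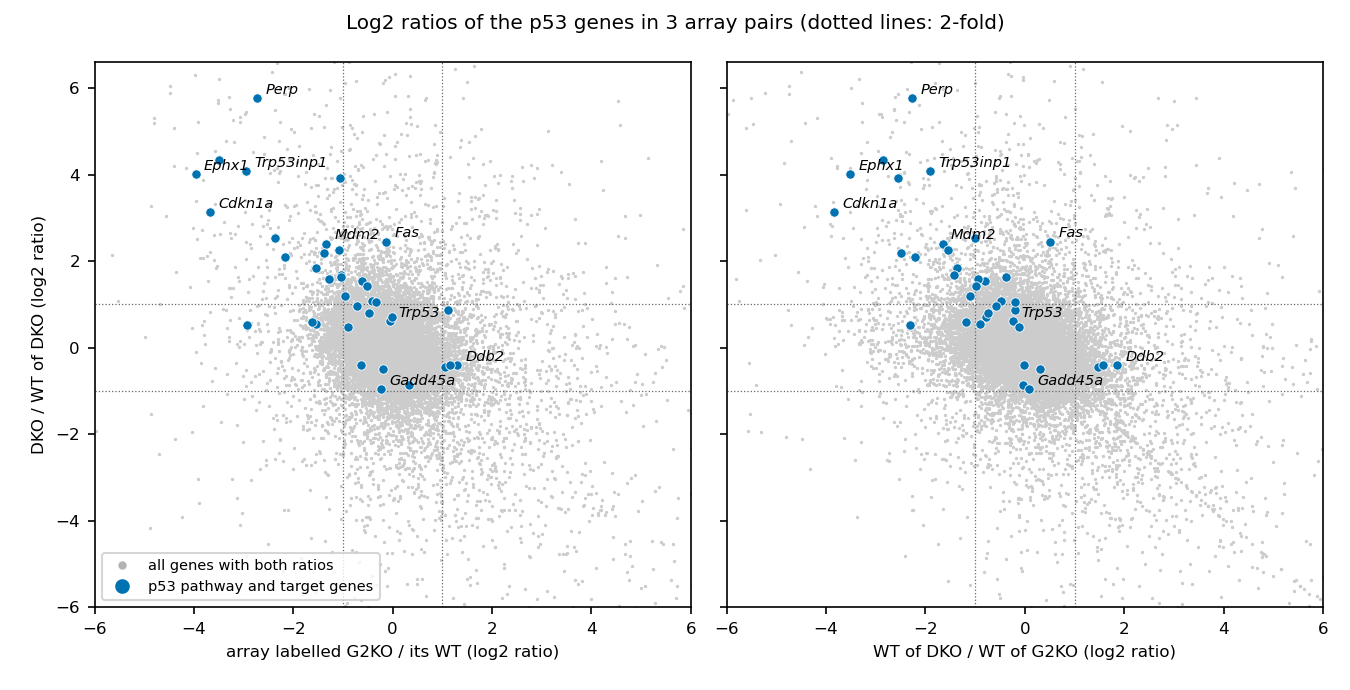
Log2 ratio of DKO to its WT (vertical axis) against the log2 ratio of the G2KO-labelled array to its WT (left) and of WT of DKO to WT of G2KO (right); blue points are the 37 genes, with bounds for Eda2r and Gdf15, and grey points all genes with every ratio, some beyond the axes. In the left plot 15 blue points lie above the upper and left of the lower 2-fold line; since WT of DKO enters both axes of the right plot and a similar array both of the left one, a falling slope is built in.

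In 15 of 37 genes the DKO ratio was at least 2-fold upwards and the ratio on the G2KO-labelled array at least 2-fold downwards, where 2.10% of all genes had this combination. The reverse combination, found in 3.19% of all genes, occurred in 0 of 37, and a 2-fold difference the same way in both, found in 2.14%, also in 0 of 37. With the labels of the G2KO pair exchanged, the 15 genes would be at least 2-fold higher in both comparisons and 0 of 37 would change in opposite ways. The WT of DKO array and the G2KO-labelled array, which resemble each other, enter these ratios on opposite sides. Without scaling of the arrays, Mdm2, Bax, Tnfrsf10b, Btg2, Ddit4, Polk and Ercc5 were within 2-fold in the pair labelled G2KO.

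In the stress response and metabolism group, 4 of 7 genes were at least 2-fold higher in DKO than in WT and 5 of 7 at least 2-fold lower on the G2KO-labelled array than on its WT. Ephx1, the microsomal epoxide hydrolase (chromosome 1, 182919689 to 182919748), was at 2.68 in WT of DKO, 43.1 in DKO, 30.5 in WT of G2KO and 1.95 on the G2KO-labelled array. By this probe, every array of the higher pair was at least 11.4-fold above every array of the lower pair, with 16.1-fold between DKO and WT, 15.6-fold in the pair labelled G2KO and 11.4-fold between the WT arrays. A second probe gave 9.65-fold, 8.94-fold and 7.16-fold for these 3 differences, the same higher pair with smaller differences.

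Ak1, the cytosolic adenylate kinase, was at 6.06 in WT of DKO, 25.9 in DKO, 28.2 in WT of G2KO and 6.25 on the G2KO-labelled array. Within the higher and within the lower pair it differed by at most 1.09-fold, and between them by at least 4.27-fold in the ratios of each knockout to its WT. Pltp, which transfers phospholipids between lipoproteins, was at 0.401 in WT of DKO, 2.33 in DKO, 0.803 in WT of G2KO and 0.156 on the G2KO-labelled array. DKO was above and the G2KO-labelled array below both WT arrays by at least 2-fold. Ddit4, an inhibitor of mTORC1 signalling also called REDD1, was at 1.57 in WT of DKO, 5.03 in DKO, 4.24 in WT of G2KO and 2.07 on the G2KO-labelled array. It was 3.20-fold higher in DKO than in WT and 2.04-fold lower in the G2KO-labelled pair.

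Gdf15, a secreted stress cytokine, was at 0.0505 in WT of G2KO and 0.0148 in DKO, while the remaining arrays were not well above background. Its ratio was at least 1.45-fold in the DKO pair, and DKO was 3.41-fold below WT of G2KO, the only gene of the 37 at least 2-fold below that array. The sestrins, leucine sensors that restrain mTORC1, differed from each other. Sesn2 was at 0.900 in WT of DKO, 1.26 in DKO, 0.978 in WT of G2KO and 0.527 on the G2KO-labelled array, all within 2-fold in each pair of knockout and WT. Sesn1 was at 1.36 in WT of DKO, 0.997 in DKO, 0.488 in WT of G2KO and 1.02 on the G2KO-labelled array, so WT of G2KO was the low array, as for Dram1.

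Of the 5 genes of DNA repair and nucleotide supply, Polk and Ercc5 were at least 2-fold higher in DKO than in WT. Polk, a translesion DNA polymerase, was at 0.334 in WT of DKO, 1.59 in DKO, 0.974 in WT of G2KO and 0.462 on the G2KO-labelled array, 4.77-fold higher in DKO than in WT. A second Polk probe gave a log2 ratio of 1.64 beside 2.25. Ercc5, the XPG endonuclease of nucleotide excision repair, was at 0.419 in WT of DKO, 1.31 in DKO, 0.548 in WT of G2KO and 0.265 on the G2KO-labelled array, with DKO above both WT arrays by at least 2.39-fold.

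Xpc, the damage sensor of the same repair pathway, was at 0.496 in WT of DKO and 0.960 in DKO, just short of 2-fold at 1.93-fold, with 0.746 and 0.455 on the other arrays. Rrm2b, the p53-inducible ribonucleotide reductase subunit, ran from 0.0579 in WT of DKO to 0.101 in DKO, 1.74-fold apart. Ddb2, which recognises ultraviolet lesions and is known to depend on p53 less in mouse than in human cells, was at 0.368 in WT of DKO, 0.278 in DKO, 0.102 in WT of G2KO and 0.249 on the G2KO-labelled array. Ddb2, Dram1 and Sesn1 were the 3 genes at least 2-fold higher in WT of DKO than in WT of G2KO, and with Plk2 they made up the 4 that were at least 2-fold higher on the G2KO-labelled array than on its WT.

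By their medians, other genes of the pathway moved less as a group. In a list of 20 upstream regulators and cofactors of p53, 1 was at least 2-fold higher in DKO than in WT, where 10.6% of all genes were. Another 1 was at least 2-fold lower, where 9.61% were, and the median log2 ratio was -0.08. The highest were Hipk2, a kinase of p53, at 2.09, Chek2 at 0.96 and Trp53bp1 at 0.46. The lowest were Cdkn2a at -2.19, the deacetylase gene Sirt1 at -0.83 and the ubiquitin ligase gene Rfwd2 at -0.81. Cdkn2a encodes p16 and p19ARF, the latter an inhibitor of MDM2, and the probe was at 23.3 in WT of DKO, 5.09 in DKO, 0.0157 in WT of G2KO and 24.3 on the G2KO-labelled array. Its order across the arrays was the reverse of that of Mdm2 and Cdkn1a in so far as DKO and WT of G2KO were the lower pair.

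A second list held 42 further genes that have been described as p53 targets, of which 40 were found. In DKO against WT, 11 were at least 2-fold higher, where 10.6% of all genes were, and 5 at least 2-fold lower, where 9.61% were. The median log2 ratio was 0.07, and 24 were within 2-fold. At least 4-fold higher were 9 of the 40, where 4.05% of all genes were, and 2 were at least 4-fold lower. The highest were Igfbp3 and Tap1, each with a log2 ratio of at least 4.37, since both were dim in WT of DKO, and Cd82 at 3.84. The lowest were the deleted Ccng1 at -7.83 or lower, Jun at -2.54 and Gls2 at -1.69, followed by Ier5 and Steap3, which were named after their values were seen. In the pair labelled G2KO, 6 of the 40 were at least 2-fold higher, where 8.74% of all genes were. There, 8 were at least 2-fold lower, where 8.37% were, and the median was -0.20. On the arrays where Ccng1 was well above background, its level was 9.45 in WT of G2KO, 1.66 in WT of DKO and 1.98 on the G2KO-labelled array. It was 5.68-fold higher in WT of G2KO than in WT of DKO, the order seen for Mdm2 and Cdkn1a.

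Genes repressed through the DREAM complex, which carries p21 signals to cell cycle promoters, did not mirror Cdkn1a. Of 20 such genes, 0 differed by 2-fold between DKO and WT, where 10.6% of all genes were higher and 9.61% lower. The median log2 ratio was 0.14, although Cdkn1a differed 8.74-fold. On the G2KO-labelled array, 5 were at least 2-fold lower than in WT of G2KO, where 8.37% of all genes were. These were Ccna2, Bub1, Aurkb, Foxm1 and Mki67, and 0 were at least 2-fold higher, where 8.74% were. In WT of DKO, 18 of 20 were at least 2-fold lower than in WT of G2KO, where 9.91% of all genes were, with a median of -2.89. Their summed level was 185 in WT of G2KO, where Cdkn1a was highest, 112 on the G2KO-labelled array, 32.0 in DKO and 31.6 in WT of DKO.

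**Figure D3:**
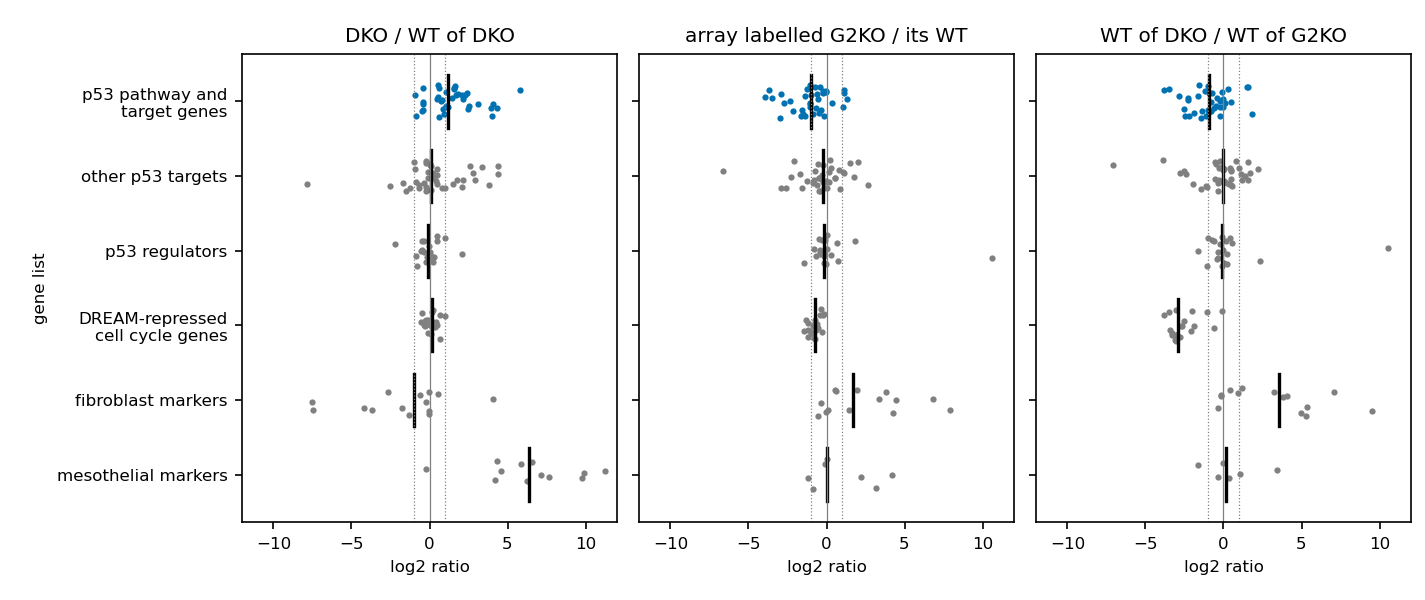
Log2 ratios of the 37 genes (blue) and of 5 other gene lists (grey) in 3 pairs of arrays; each point is a gene, vertical bars are medians, dotted lines mark 2-fold, and vertical scatter within a list carries no meaning. The median of the 37 genes is 1.19, -0.97 and -0.90 from left to right, while that of the mesothelial list in the DKO pair is 6.40.

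The labelled cell type was checked with 14 fibroblast marker genes. All 14 were well above background in DKO, in WT of DKO and on the G2KO-labelled array, and 12 were in WT of G2KO, where Pdgfra and Lum were not. Their median log2 ratio was -0.97 for DKO against WT, 1.72 in the pair labelled G2KO and 3.54 between the WT arrays, so that the medians of the fibroblast markers ran opposite to those of the 37 genes. The markers did not move alike. In DKO against WT, 7 of the 14 were at least 2-fold lower, where 9.61% of all genes were. Within 2-fold were 6, among them Col1a1, Col1a2, Vim and Fn1, and Dcn was 16.6-fold higher. The summed level was 547 in DKO, 761 in WT of DKO, 415 in WT of G2KO and 605 on the G2KO-labelled array. Of 8 neural progenitor genes the summed level was 31.2 in WT of G2KO and 1.93 to 2.61 on the other arrays. Most of the sum in WT of G2KO was Nes, at 28.0, and Sox2 was well above background only on that array. Of 5 smooth muscle genes, Acta2 and Tagln, which make up nearly all of the sum, were at least 4-fold lower in DKO than in WT. Myh11 was at least 2.64-fold higher, Cnn1 1.12-fold higher, and Des well above background only in DKO. The sum was 42.6 in DKO and 214 to 362 on the others. The 6 endothelial genes summed to 3.12 to 4.47, nearly all of it Kdr, and the 6 macrophage genes to 12.3 to 23.3, most of it Itgam. These sums thus say little of the other genes. In DKO against WT, Tek was 2.98-fold lower and the 3 other endothelial genes with a ratio were within 2-fold. Cd14 was 8.28-fold and Cd68 at least 3.00-fold higher, and the other 4 macrophage genes were within 2-fold. The part of these cell types in the levels of the p53 target genes was not tested, and culture and genotype cannot be told apart with 1 array per group. Xist and the Y-linked genes did not separate DKO from its WT, but they did separate the arrays of the pair labelled G2KO.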

How the data were processed

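RNA from 4 MEF cultures was read on Agilent Whole Mouse Genome arrays, all on 1 slide, with Cy3 as the only dye. The authors deposited the scanner output as made by Feature Extraction, for which the file headers name version 10.7.3.1 and the submitters' processing notes 10.5.1.1, as background-subtracted intensity per spot that was not normalized between arrays. A deposited table holds the same intensity values. Probe coordinates are on mm9, as the files give them.

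Control spots and outlier spots (107 to 140 per array) were left out, and log2 intensity minus the array's 75th percentile was averaged over the spots of a probe. A gene was represented by its probe with the highest mean. A ratio needed a probe well above background on 1 or both arrays of the pair. The dim side was set to the lowest signal well above background, or to its own signal where that was higher, so the ratio is a limit. With 1 array per group no test was run, and precision is limited by this number of arrays. A 2-fold difference was the threshold. Named were all 37 genes, the knocked-out genes, and from the lists of regulators and of other targets the 3 highest and 3 lowest in DKO against WT. Other genes are named where a result turns on them. The 37 genes and all lists were chosen with earlier results of these data known. Other scalings, quantile normalization, normexp correction (limma 3.58.1 in R 4.3.3), detection filters and reference arrays were tried as alternatives. The computation was tested on simulated data. Python 3.11.15, numpy 2.4.6 and pandas 2.3.3 were used.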

Additional observations from a re-analysis of the deposited data

Results flagged for a closer look

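By the labels, 15 genes differed in opposite ways in the DKO comparison and the comparison labelled G2KO, being at least 2-fold higher in DKO than in its WT and at least 2-fold lower on the G2KO-labelled array than on its WT. With 1 array per group, the difference between these log2 ratios was not tested. Its size was largest for Perp at 8.49, followed by Ephx1 at 7.97, Eda2r at 7.83 as a limit, Trp53inp1 at 7.03 and Cdkn1a at 6.80. It was 4.98 for Btg2, 4.90 for Pltp, 4.27 for Ak1, 3.75 for Mdm2 and 3.57 for Bax. It was 3.38 for Zmat3, 3.33 for Polk, 2.87 for Tnfrsf10b, 2.71 for Ddit4 and 2.69 for Ercc5. The G2KO-labelled array resembles WT of DKO, and these enter the ratios on opposite sides. The direction of the pair labelled G2KO is in doubt, and these values and their order rest on it. With its labels exchanged, no gene would differ in opposite ways, and the DKO ratio would exceed the exchanged ratio by 3.05 for Perp, 2.86 for Btg2 and 0.04 for Ephx1, while for Cdkn1a the difference would be -0.54.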

How the results depend on the processing

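The reference array moved the counts most. Against the other WT array, DKO MEFs had 10 genes at least 2-fold higher and 1 lower in place of 21 and 0, and the G2KO-labelled array had 2 lower in place of 18. With both WT arrays averaged as the reference, the G2KO-labelled array had 10 lower and 1 higher in place of 18 and 4, and the share of all genes was not counted. Without scaling, 11 of the 37 genes were lower on the G2KO-labelled array, where 769 in place of 1907 of all genes were. In DKO 1 of the 37, Gadd45a, was then lower, where 2449 in place of 2200 of all genes were. At 4-fold, the counts fell to 12 higher in DKO, 8 lower and 0 higher on the G2KO-labelled array, and 8 lower and 0 higher in WT of DKO against WT of G2KO. Every other count stayed within 1.5 times its value, and each median log2 ratio of the 37 genes kept its sign and moved by less than the SD of 1.2 between the WT arrays over genes. Of 882 ratios of the 37 genes under the alternatives that keep the reference array, 0 above 2-fold reversed and 10 moved by more than that SD, all of Eda2r or Gdf15, which were near background. Of 72 ratios against the other WT array, an alternative chosen after seeing the data, 13 turned. In DKO these were Cdkn1a to -0.71, Bax to -0.32 and Ak1 to -0.12. On the G2KO-labelled array they were Mdm2 to 0.31, Cdkn1a to 0.17, Bax to 1.11, Btg2 to 1.48, Ddit4 to 0.40, Polk to 0.47, Ak1 to 0.043, Sesn1 to -0.42, Ddb2 to -0.56 and Dram1 to -0.43. Another 17 moved by more than the SD without turning a 2-fold difference, among them Perp on the G2KO-labelled array to -0.45. The DREAM and fibroblast medians in DKO became -2.50 and 1.28. The deposited table gave the same values by construction. Without scaling, the median of all genes shifted by 0.50 in the pair labelled G2KO, where 83.4% in place of 51.1% of all 2-fold calls were upwards, and by 0.25 between the WT arrays, where 69.4% in place of 54.1% were. Scaling to the median shifted the latter by -0.18, with 40.8% upwards, and normexp correction shifted the DKO pair by 0.11. Without scaling, the sign of the small ratios of Trp53, Mdm4, Pmaip1, Fas, Ei24, Gadd45a, Rrm2b and Ppm1d in the pair labelled G2KO turned. No paired analysis was possible because each group is 1 array.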
